A study of Mus musculus with 6 samples.

Results

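This report follows 6 aldo-keto reductase genes, Akr1a1, Akr1b3, Akr1b8, Akr1b10, Akr1c12 and Akr7a5, among 23644 genes listed for 4T1 cells with and without Carmil3. The 6 symbols were selected on FPKM values of these same libraries, so their levels and their differences between the groups are a description. How many of them passed the threshold of the fit across all genes is given as a count, with no p-value and as no evidence. All 6 were found in the table by their Ensembl mouse identifiers. RNA sequencing was done on 3 libraries of Carmil3 knockout 4T1 cells (KO below), which were grown from single cells, and on 3 libraries of wild-type 4T1 cells (control below). 4T1 is a mouse mammary tumour cell line, and Carmil3 belongs to a family of proteins that bind actin capping protein. How many KO clones were sequenced is not stated, nor whether the control cells were cloned or each library stands for its own culture. A property of a clone and an effect of the knockout therefore cannot be told apart, and the p-values below measure the spread between these libraries, which may be technical.

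Values are the authors' FPKM, read numbers scaled by exon length and sequencing depth. The spacing of the values implied read totals between 17779120 and 19046810 per library. Reads rebuilt from the values of the listed genes summed to 108.7% to 109.1% of these totals, and the reason was not tested. Carmil3 itself was listed at 0, 0.0118 and 0.0241 FPKM in KO libraries and at 0.0360, 0.0246 and 0.0117 FPKM in control libraries, so it was too rare to check the labels. Of the mammary epithelial markers, 7 of 8 were listed; their summed level, carried by Krt8 and Krt18, lay between 428 and 473 FPKM in KO libraries and between 1013 and 1107 FPKM in control libraries. Several were nearly lost in KO cells, with every KO library under 1 FPKM. Epcam averaged 0.0875 FPKM in KO and 19.7 FPKM in control cells, Cdh1 0.773 FPKM in KO and 12.4 FPKM in control cells, Krt7 0.149 FPKM in KO and 27.9 FPKM in control cells, and Krt14 0.0105 FPKM in KO and 2.81 FPKM in control cells. These passed the filter on low values (1 FPKM in at least 3 libraries) through the control group alone. Among 4 listed leukocyte markers Cd68 alone passed the filter, with Ptprc and Adgre1 under 0.1 FPKM in every library, and the sums were 2.57 to 3.28 FPKM in KO and 3.06 to 3.47 FPKM in control libraries. The 3 listed endothelial markers summed to at most 0.0682 FPKM in KO and 0.0572 FPKM in control libraries. Of 3 listed fibroblast markers, Pdgfra and Col1a1 passed, and the sums were 17.8 to 18.3 FPKM in KO against 11.4 to 12 FPKM in control libraries. Pdgfra was higher in KO (17.6 FPKM in KO and 10.1 FPKM in control cells on average), whereas Col1a1 was lower (0.271 FPKM in KO and 1.501 FPKM in control cells). Dcn, under the filter, averaged 0.154 FPKM in KO and 0.0281 FPKM in control cells. The epithelial and the listed fibroblast markers thus moved with the groups, Col1a1 against the direction of Pdgfra and Dcn. The part of all these markers in the results below was not tested. In these bulk samples fewer cells that express a gene and less RNA per cell cannot be told apart.

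Aldo-keto reductases are soluble enzymes that use NADPH to reduce aldehydes and ketones to alcohols. Their substrates range from sugars and steroids to prostaglandins, retinaldehyde and the reactive aldehydes left by lipid peroxidation. In tumour cells they are known for detoxifying reactive carbonyls and some drugs, and several human members are induced by the stress-responsive transcription factor NRF2. The mouse genes lie partly in tandem clusters of close relatives: Akr1b3, Akr1b8, Akr1b10 and Akr1b7 on chromosome 6, and the Akr1c genes with Akr1e1 on chromosome 13.

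KO cells had more mRNA of 4 of the 6 members and less of 1. Akr1c12 stood out with a KO level 2.70 times the control level, followed by Akr1b10 (1.58 times), Akr1b8 (1.46 times) and Akr1a1 (1.28 times). Akr1b3, the aldose reductase gene, was lower in KO cells, at 0.752 times the control level, and Akr7a5 overlapped between the groups. In limma's fit across all 11171 genes that passed the filter, 4 members were past the threshold as higher in KO, where 16.9% of all tested genes were, and 1 as lower, where 18.7% were. The KO and control values did not overlap for 5 of 6 members and for 50.5% of all tested genes. The members' median log2 difference, on the scale of log2(FPKM + 1) and as KO minus control, was 0.44, and that of all tested genes was -0.01. Since the members were chosen with this comparison in view, nothing is read from these counts. All 6 members passed the filter through more than 1 FPKM in each of the 6 libraries.

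**Figure D1:**
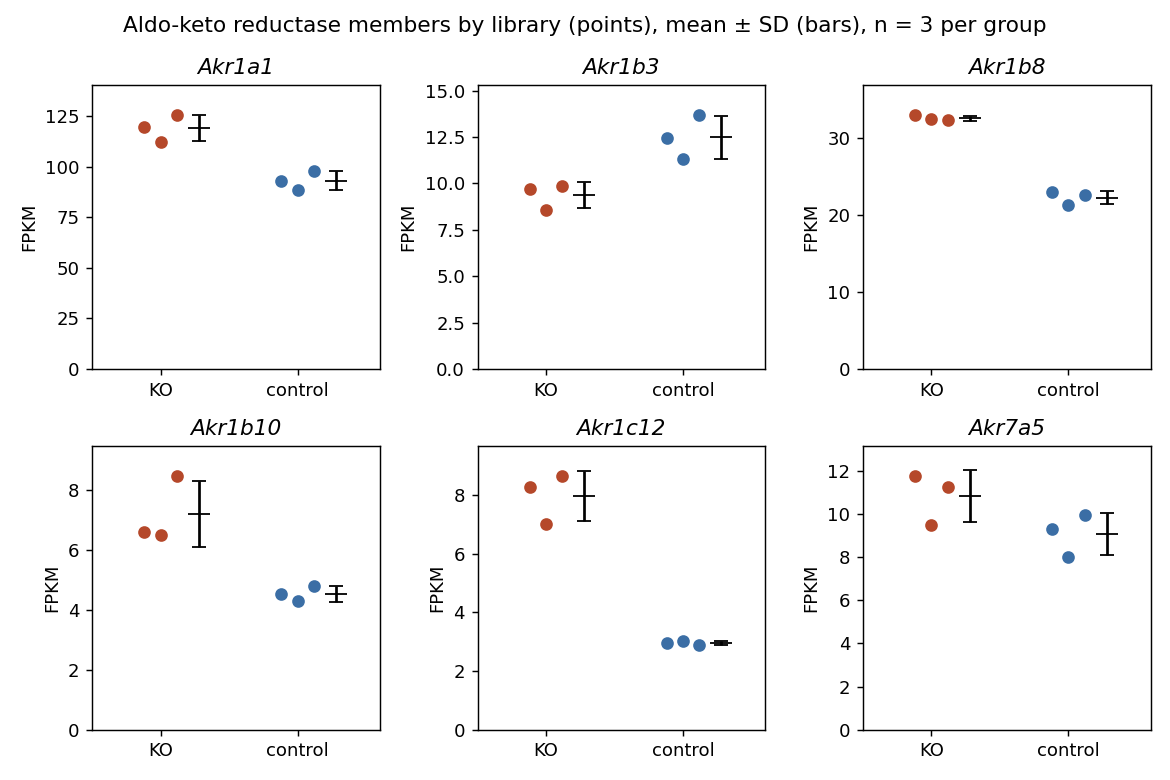
FPKM of each member in every library (points; KO left, control right), with the group mean and SD (n = 3 libraries per group) beside them and every axis starting at 0. The KO points lie above the control points for Akr1a1, Akr1b8, Akr1b10 and Akr1c12, and below them for Akr1b3; for Akr7a5 KO replicates 1 and 3 lie above the control points and KO replicate 2 (9.49 FPKM) among them.

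Akr1a1 encodes aldehyde reductase, which reduces glucuronate to gulonate on the way to vitamin C in the mouse. The gene (ENSMUSG00000028692) lies on the minus strand of chromosome 4, from 116636510 to 116651680 on GRCm38, the assembly also called mm10. Its level was 120, 112 and 125 FPKM in KO libraries and 93.2, 88.5 and 98.0 FPKM in control libraries. It was the most abundant member in every library, and its KO and control values did not overlap. The means were 119 ± 6.53 FPKM in KO and 93.2 ± 4.75 FPKM in control cells (SD, n = 3 each), a log2 difference of 0.35 with a standard error of 0.06. The number of reads behind each value was between 4329 and 6278. The nearest tested genes on either side showed smaller differences that did not pass the test: Nasp, which encodes a histone chaperone, had a log2 difference of 0.17 (limma, Benjamini-Hochberg adjusted p = 0.0830), and Prdx1, a peroxiredoxin gene, one of 0.10 (adjusted p = 0.346, limma).

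Akr1b3 encodes the mouse aldose reductase, the enzyme of the polyol pathway that reduces glucose to sorbitol. The gene (ENSMUSG00000001642) occupies 34302434 to 34317478 on the minus strand of chromosome 6. Its level was 9.71, 8.59 and 9.86 FPKM in KO libraries and 12.5, 11.3 and 13.7 FPKM in control libraries. Every KO library was below every control library. The means were 9.39 ± 0.695 FPKM in KO and 12.5 ± 1.18 FPKM in control cells (SD, n = 3 each), a log2 difference of -0.37 with a standard error of 0.08. Akr1b3 was the only member whose level was lower in KO cells.

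Akr1b8 is the next tested gene, with 36640 bases between the 2 annotated genes, and it runs in the other direction on the plus strand (ENSMUSG00000029762, 34354119 to 34368463). It encodes a reductase of lipid-derived aldehydes that was first described as a protein induced by fibroblast growth factor. Its level was 33.0, 32.5 and 32.3 FPKM in KO libraries and 23.0, 21.3 and 22.6 FPKM in control libraries. The KO libraries differed from each other by less than those of any other member, with a coefficient of variation of 1.07%, and all were above the control libraries. The means were 32.6 ± 0.349 FPKM in KO and 22.3 ± 0.874 FPKM in control cells (SD, n = 3 each), and the log2 difference was 0.53 with a standard error of 0.05.

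Akr1b10 follows Akr1b8 on the same strand after 15754 bases (ENSMUSG00000061758, 34384218 to 34396950). It shares its name with human AKR1B10, which in human cells reduces retinaldehyde and lipid aldehydes. Its level was 6.59, 6.50 and 8.45 FPKM in KO libraries and 4.51, 4.28 and 4.81 FPKM in control libraries. KO replicate 3 was well above the other KO libraries, and all 3 were above the control libraries. Over all genes with many reads, KO replicate 3 also lay apart from KO replicates 1 and 2. The pairwise chi-square over its degrees of freedom was 19.15 and 17.73, against 3.03 between KO replicates 1 and 2. Without KO replicate 3 the log2 difference of Akr1b10 was 0.45. The means were 7.18 ± 1.10 FPKM in KO and 4.53 ± 0.263 FPKM in control cells (SD, n = 3 each), a log2 difference of 0.56 with a standard error of 0.10. Akr1b7, the fourth gene of the cluster, was listed at 0 in all KO libraries and in control replicates 1 and 2, and at 0.0834 FPKM in control replicate 3.

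The tested genes on both sides of this cluster did not pass the test. Slc35b4, a nucleotide sugar transporter gene on the Akr1b3 side, had 4.98 ± 0.128 FPKM in KO and 4.50 ± 0.114 FPKM in control cells (SD, n = 3 each), a log2 difference of 0.12 (adjusted p = 0.142, limma). Bpgm, the bisphosphoglycerate mutase gene beyond Akr1b10, had 2.68 ± 0.0736 FPKM in KO and 2.68 ± 0.198 FPKM in control cells, with adjusted p = 0.989 by limma. Over the 20 nearest tested genes on each side, the median log2 difference was 0.14 for all 3 Akr1b members, and over the 523 tested genes of chromosome 6 it was 0.16. With the median of the neighbours subtracted, the log2 differences were -0.51 for Akr1b3, 0.39 for Akr1b8 and 0.42 for Akr1b10. The values that centring moved most among the members were therefore those of this cluster, and their directions stayed.

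The promoters of Akr1b8 and Akr1b10 are shown because these neighbouring genes were higher in KO by similar log2 differences while their other neighbour Akr1b3 was lower. The sequences are RefSeq promoter windows of GRCm38.p6, from 250 bases before to 50 bases after the start site, on the plus strand, at chr6:34353896-34354195 and chr6:34383997-34384296. Capitals mark GC boxes (the letters GGGCGG on either strand, overlapping copies counted separately).
Akr1b8: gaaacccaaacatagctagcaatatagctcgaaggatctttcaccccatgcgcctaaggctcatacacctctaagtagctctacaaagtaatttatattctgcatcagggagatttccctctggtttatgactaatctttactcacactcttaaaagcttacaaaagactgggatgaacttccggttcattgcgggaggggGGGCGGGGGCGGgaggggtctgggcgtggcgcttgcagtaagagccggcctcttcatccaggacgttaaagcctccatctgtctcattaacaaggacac
Akr1b10: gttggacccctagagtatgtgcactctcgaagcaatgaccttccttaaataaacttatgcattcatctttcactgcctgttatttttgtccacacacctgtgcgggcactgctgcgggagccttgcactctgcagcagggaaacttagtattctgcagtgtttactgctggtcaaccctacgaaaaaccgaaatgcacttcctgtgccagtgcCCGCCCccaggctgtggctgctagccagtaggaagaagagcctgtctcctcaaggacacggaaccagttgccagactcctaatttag
Aligned end to end, the windows were 46.4% identical, while the coding sequences of the 2 genes were 84.8% identical. The Akr1b8 window held 2 GC boxes, 49 and 43 bases before the start site, and the Akr1b10 window held 1, 37 bases before it. A GC box was found in 35.7% of all 32851 windows of this length, so such matches are common. All members but Akr1b3 matched a window, 5 of 6. GC boxes occurred in 3 of the 5. The core letters of the antioxidant response element, TGACNNNGC, which NRF2 binds, were found on neither strand of any of the 5 windows and in 12.4% of all windows. Letters of an AP-1 site, TGANTCA, also had 0 matches in the 5 windows and matched in 7.8% of all. At shares this low, 0 matches in 5 windows are not unusual, so nothing is read from them. Sites outside the windows were not searched. The 5 windows held between 2 CpG dinucleotides, in Akr1c12, and 27, in Akr7a5, against a median of 7 over all windows.

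How the levels of the Akr1b genes rank depends on the length they are divided by. The spacing of the deposited values matches the merged length of all annotated exons, with which the 6 members gave whole read numbers in every library to within 0.003 of a read. For Akr1b3 that length is 8384 bases, 6.04 times its coding transcript of 1387 bases, and 6928 of these bases are annotated in retained-intron transcripts alone. For Akr1b8 it is 1499 bases against a coding transcript of 1358, and for Akr1b10 3535 bases against 1371. As deposited, Akr1b8 was above Akr1b3 in every library. With the same reads divided by the length of the coding transcript, Akr1b3 was highest, with 56.8 ± 4.20 in KO and 75.5 ± 7.10 in control cells, and Akr1b8 had 36.0 ± 0.385 in KO and 24.6 ± 0.965 in control cells (FPKM recomputed with the coding transcript length, SD, n = 3 each).

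On that coding-length scale the recomputed values of the 3 Akr1b genes added up to similar totals in both groups while their proportions differed. The sum was 112, 104 and 117 in KO libraries and 112, 103 and 120 in control libraries (coding-length FPKM), so the sums of the groups overlapped. Akr1b3 made up 51.0 ± 1.34% of that sum in KO and 67.4 ± 1.25% in control cells (SD, n = 3 each). Akr1b8 made up 32.4 ± 1.92% in KO and 22.1 ± 1.10% in control cells, and Akr1b10 16.6 ± 1.80% in KO and 10.5 ± 0.217% in control cells. The shares of all 3 genes did not overlap between KO and control libraries, as held for the FPKM of 50.5% of all tested genes. The 3 shares depend on each other, since they add up to the whole. They also come from members selected on these values, so they are a description. These sums rest on the annotated lengths, and reads from retained introns of Akr1b3 count fully towards it. The coding transcript of Akr1b3 also shares far more sequence with other genes than those of Akr1b8 and Akr1b10, as given below. How reads that match several genes were treated is not known, so the sums and shares are uncertain.

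Akr1c12 belongs to the hydroxysteroid dehydrogenase branch of the family, whose human members reduce steroid ketones and prostaglandins. The gene (ENSMUSG00000021211) lies on the minus strand of chromosome 13, from 4268176 to 4279433. Its level was 8.29, 7.03 and 8.66 FPKM in KO libraries and 2.97, 3.03 and 2.88 FPKM in control libraries. The lowest KO library was more than 2 FPKM above the highest control library. The means were 7.99 ± 0.853 FPKM in KO and 2.96 ± 0.0763 FPKM in control cells (SD, n = 3 each), a log2 difference of 1.18 with a standard error of 0.08. The pseudocount of 1 shrinks the difference of such a low gene, and with a pseudocount of 0.1 it was 1.40. These values rest on 199, 164 and 198 reads in KO libraries and on 68 reads in each control library, for which counting error alone gives an exact Poisson 95% interval of 52.8 to 86.2 reads.

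Akr1c13, which is no member, is a near copy of Akr1c12 that lies 62579 bases away on the other strand (ENSMUSG00000021213, 4191150 to 4205596). Its level was 25.5, 25.3 and 30.1 FPKM in KO libraries and 21.4, 22.6 and 20.9 FPKM in control libraries, and every KO value was above the control values. With 27.0 ± 2.73 FPKM in KO and 21.7 ± 0.887 FPKM in control cells (SD, n = 3 each), it was higher by 0.30 on the log2 scale (standard error 0.07; limma, Benjamini-Hochberg adjusted p = 0.0150). Akr1c13 missed the threshold when control replicate 1 or control replicate 3 was left out (adjusted p = 0.0564 and 0.0505, limma) and with no filter on low values (0.0501). Without KO replicate 3, its highest library, the log2 difference of Akr1c13 was 0.22. The coding sequences of Akr1c12 and Akr1c13 were 96.2% identical, and 28.6% of the 50-base words of the Akr1c12 transcript also occurred in Akr1c13. Reads that fall in such words could be lost or split between the copies, so single values of either gene are uncertain. Akr1c12 took 22.2%, 19.6% and 20.2% of the reads given to both genes in KO libraries and 10.8%, 10.5% and 10.8% in control libraries. Its share was higher in every KO library than in any control library, which describes a member selected on these values.

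**Figure D2:**
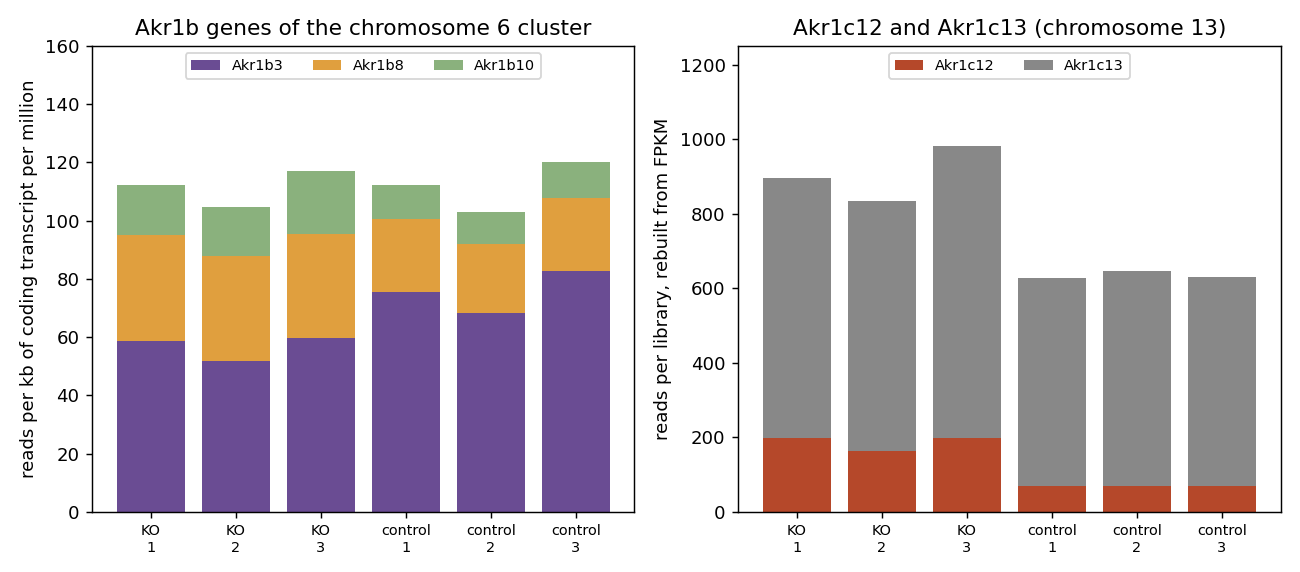
Left, FPKM recomputed with the coding transcript length for Akr1b3, Akr1b8 and Akr1b10, stacked for each library (KO left, control right). Right, reads per library given to Akr1c12 and Akr1c13, stacked in the same way; the stack heights on the left overlap between the groups, while the Akr1b3 part averages 51.0% in KO and 67.4% in control cells and the Akr1c12 part on the right 20.7% in KO and 10.7% in control cells.

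The promoter windows of Akr1c12 and Akr1c13 are shown because the copies differ little in sequence while their KO and control levels differ by unlike amounts. They are RefSeq windows of GRCm38.p6, at chr13:4279350-4279649 on the minus strand and chr13:4190937-4191236 on the plus strand, each written in the direction of transcription. Capitals mark bases that have no equal partner in the other window when both are aligned end to end.
Akr1c12: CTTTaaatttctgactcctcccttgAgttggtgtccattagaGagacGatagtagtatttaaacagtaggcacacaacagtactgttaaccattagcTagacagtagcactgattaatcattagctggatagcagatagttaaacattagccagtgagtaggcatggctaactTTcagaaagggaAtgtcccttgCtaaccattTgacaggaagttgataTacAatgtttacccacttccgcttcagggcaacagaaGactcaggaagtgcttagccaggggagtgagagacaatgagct
Akr1c13: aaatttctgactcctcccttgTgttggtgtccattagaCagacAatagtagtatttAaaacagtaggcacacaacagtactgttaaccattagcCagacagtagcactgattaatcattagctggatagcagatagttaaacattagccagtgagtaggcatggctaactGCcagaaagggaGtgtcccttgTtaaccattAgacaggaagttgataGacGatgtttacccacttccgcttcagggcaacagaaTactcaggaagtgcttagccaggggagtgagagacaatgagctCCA
The windows were 93.4% identical, with 12 columns of unlike bases and 8 columns of gaps among 304 aligned columns. Each held 2 CpG dinucleotides, and neither held any of the motifs searched.

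Akr7a5 encodes a reductase of aflatoxin dialdehyde and of succinic semialdehyde. The gene (ENSMUSG00000028743) lies on the plus strand of chromosome 4, from 139310744 to 139318426. Its level was 11.8, 9.49 and 11.3 FPKM in KO libraries and 9.29, 7.999 and 9.95 FPKM in control libraries. The groups overlapped, since KO replicate 2 was below control replicate 3. The means were 10.9 ± 1.20 FPKM in KO and 9.08 ± 0.993 FPKM in control cells (SD, n = 3 each), and with a log2 difference of 0.23 (standard error 0.10) it was the 1 member not counted as past the threshold. Of its nearest neighbours, Mrto4, a ribosome maturation gene, was lower in KO cells with a log2 difference of -0.18 (adjusted p = 0.0322, limma). Pqlc2, a lysosomal amino acid transporter gene whose annotation ends 35 bases from Akr7a5, had -0.15 and did not pass (adjusted p = 0.170, limma). With centring on neighbours Pqlc2 had -0.26 and passed (adjusted p = 0.0449, limma). The Mrto4 call was lost on leaving out any 1 library other than KO replicate 3.

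Within the KO libraries the deposited FPKM ranked Akr1a1 first and Akr1b8 second, followed by Akr7a5 (mean 10.9), Akr1b3 (9.39), Akr1c12 (7.99) and Akr1b10 (7.18). The ranges of Akr7a5 and Akr1b3 over the KO libraries overlapped, as did those of Akr1b3 and Akr1c12 and those of Akr1c12 and Akr1b10. In control libraries Akr1b3 came next after Akr1b8 with 12.5 FPKM, ahead of Akr7a5 (9.08), Akr1b10 (4.53) and Akr1c12 (2.96), with no overlap between any of these neighbours. By coding-length FPKM the order in KO cells was Akr1a1 (231), Akr1b3 (56.8), Akr1b8 (36.0), Akr1b10 (18.5), Akr7a5 (15.1) and Akr1c12 (7.99). In control cells it was Akr1a1 (181), Akr1b3 (75.5), Akr1b8 (24.6), Akr7a5 (12.6), Akr1b10 (11.7) and Akr1c12 (2.96), and Akr7a5 and Akr1b10 overlapped. Replicate 2 was the lowest library of its group for 4 members in both groups, namely Akr1a1, Akr1b3, Akr1b10 and Akr7a5.

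Akr1b3 shares sequence with several processed copies in the genome. Of the 50-base words of its coding transcript, 59.9% also occurred in annotated transcripts of other genes, mostly pseudogenes. The pseudogene with the largest share, Gm6644, was not among the listed genes, so it has no value here. Gm6736 and Gm12138, which share fewer of the words, had at most 0.523 FPKM in any KO library and at most 0.475 FPKM in any control library. For Akr1b8 and Akr1b10 the share of such words was 3.2% each, and for Akr1a1 and Akr7a5 it was 0%. Reads of Akr1b3 that fall in such words could be lost or split between the copies. The level of Akr1b3, its rank among the members and its part in the Akr1b sums and shares are therefore uncertain. Whether such reads also bear on its difference between KO and control cells was not tested.

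Of the 14 other aldo-keto reductase genes, including the potassium channel beta subunits that share the fold, 9 were listed and 3 passed the filter. Besides Akr1c13, Akr1e1 was higher in KO cells, and limma called 0 of the 3 as lower. Over all tested genes 16.9% were higher and 18.7% lower, and no direction is read from 3 genes. At an unadjusted p under 0.05, 0 were lower, and limma-voom on rebuilt reads called 0 as lower. Akr1e1, the anhydrofructose reductase gene at the end of the chromosome 13 cluster, had 4.85 ± 0.333 FPKM in KO and 4.04 ± 0.216 FPKM in control cells (SD, n = 3 each), a log2 difference of 0.21 with adjusted p = 0.0422 by limma. That call was lost under several alternatives, among them no filter (adjusted p = 0.0866), centring on neighbours (0.0898) and leaving out KO replicate 1 (0.131), KO replicate 3 (0.0732), control replicate 1 (0.159), control replicate 2 (0.0561) or control replicate 3 (0.0856). The count of 2 became 1 without KO replicate 1, KO replicate 3 or control replicate 2, and 0 without control replicate 1 or control replicate 3. Kcnab2, a beta subunit gene, had 19.9 ± 1.33 FPKM in KO and 18.2 ± 1.72 FPKM in control cells and did not pass (adjusted p = 0.261, limma). Kcnab3 was under the filter, at 0.568, 0.641 and 0.654 FPKM in KO and 0.269, 0.177 and 0.205 FPKM in control libraries. The remaining 5 listed genes reached at most 0.0896 FPKM in any library.

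**Figure D3:**
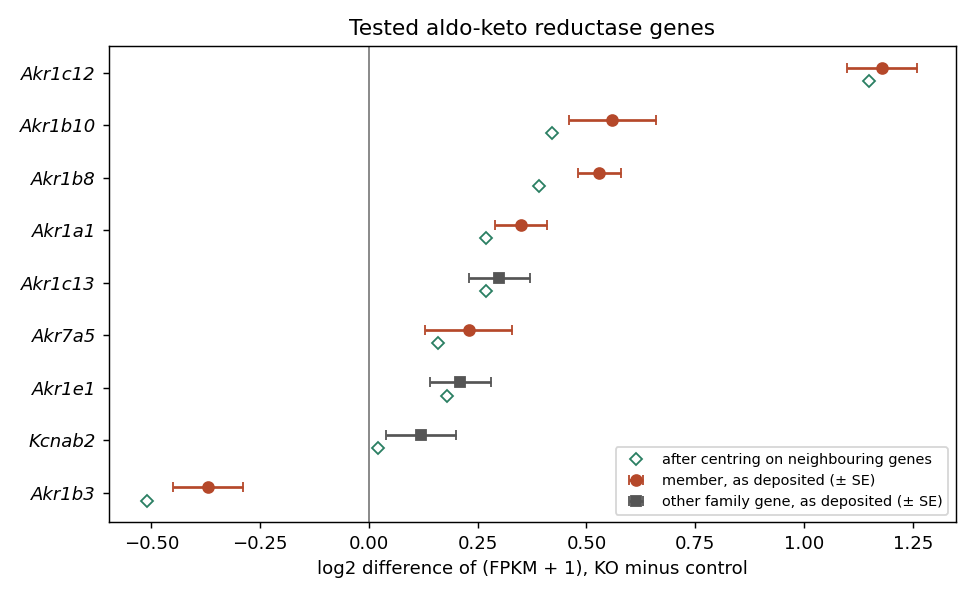
Log2 difference of (FPKM + 1), KO minus control, with its standard error (n = 3 libraries per group), for the 6 members (circles) and the 3 other tested family genes (squares); open diamonds give the value after the median of 20 neighbours on each side was subtracted. Akr1c12 lies at 1.18, Akr1b3 at -0.37, and the rest between 0.12 for Kcnab2 and 0.56 for Akr1b10.

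Genes related to the members by pathway were counted by list, and each count stands against 16.9% of all tested genes higher and 18.7% lower in KO, with a median log2 difference of -0.01 over all. Of 7 tested genes of the polyol, fructose and glucuronate-ascorbate routes, which include the enzymes next to Akr1b3 and Akr1a1, 2 rose in KO cells and 1 fell; the median log2 difference was 0.14. A count of this size is close to those shares. Sord, the sorbitol dehydrogenase that oxidises the sorbitol made by aldose reductase, had 19.96, 18.4 and 19.4 FPKM in KO libraries and 8.56, 8.01 and 7.81 FPKM in control libraries. It rose 2.37-fold (log2 difference 1.15, standard error 0.06, adjusted p = 2.55e-06, limma), while Akr1b3, the step before it, was lower. Dcxr, the reductase of xylulose in the glucuronate pathway, rose to 3.48 ± 0.690 FPKM in KO, against 1.99 ± 0.373 FPKM in control cells (SD, n = 3 each; adjusted p = 0.0110, limma). The single fall was Ugp2, the UDP-glucose pyrophosphorylase gene, with a log2 difference of -0.20 (adjusted p = 0.0180, limma). Centring on neighbours left it at -0.04 (adjusted p = 0.660), and the call was also lost without KO replicate 1, KO replicate 2, control replicate 1 or control replicate 3.

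Of 6 tested genes of the osmotic response, to which aldose reductase belongs through the sorbitol it makes, 2 rose and 3 fell, with a median log2 difference of -0.27. Slc6a6, the taurine transporter gene, fell to 26.3 ± 2.65 FPKM in KO, against 35.6 ± 0.823 FPKM in control cells (adjusted p = 0.00257, limma). Hspa4l, a stress chaperone gene, fell to 9.29 ± 0.457 FPKM in KO, against 16.3 ± 0.980 FPKM in control cells (adjusted p = 5.22e-05, limma). The kinase gene Sgk1 rose to 20.4 ± 0.760 FPKM in KO, against 15.9 ± 0.0735 FPKM in control cells (SD, n = 3 each; adjusted p = 0.00140, limma). The count of rises was 1 without KO replicate 1 or any 1 of the 3 control libraries. The count of falls was 2 with no filter, with centring on neighbours and without any 1 of the 3 control libraries. The fall lost in each case was Nfat5, with a log2 difference of -0.43 in the fit as reported (adjusted p = 0.0401, limma). Centring left Nfat5 at -0.17 (adjusted p = 0.386, limma).

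Other enzymes clear aldehydes, ketones and quinones by oxidation, reduction or conjugation. Among 11 tested aldehyde dehydrogenase genes 4 rose and 1, Aldh16a1, fell, with a median log2 difference of 0.05. The rises were 2 without KO replicate 1, KO replicate 2, control replicate 1 or control replicate 2, and the falls were 2 without KO replicate 3. Aldh3a1, which oxidises medium-chain and aromatic aldehydes, had 26.5, 26.6 and 26.3 FPKM in KO libraries and 14.0, 12.9 and 14.6 FPKM in control libraries. It rose 1.91-fold (adjusted p = 1.11e-05, limma). Of 23 tested genes of carbonyl, aldehyde and quinone reduction or conjugation, 6 rose and 5 fell, with a median log2 difference of -0.09. With 1 library left out the rises numbered 4 to 6 and the falls 5 to 6. This list shares Dcxr with the polyol list. Dcxr (120725399 to 120727281) and Cbr2 (120729489 to 120732114), both among the rises, lie close together on the minus strand of chromosome 11. Cbr2, a carbonyl reductase gene, rose 3.16-fold, to 12.1 ± 0.774 FPKM in KO, against 3.83 ± 0.858 FPKM in control cells (adjusted p = 6.81e-05, limma). Gsta4, whose product conjugates hydroxynonenal to glutathione, rose 2.17-fold (log2 difference 1.05). The retinol dehydrogenase gene Rdh10 fell to 3.41 ± 0.262 FPKM in KO, against 7.39 ± 0.0697 FPKM in control cells (SD, n = 3 each; adjusted p = 1.49e-05, limma).

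Of 26 tested NRF2 target genes other than the members, 7 rose and 8 fell, where 16.9% and 18.7% of all tested genes did, and their median log2 difference was 0.01. Gsta4, Ptgr1 and Nqo1 of these also stand in the list before. Gstm1, a glutathione transferase gene, had 44.5, 39.4 and 42.7 FPKM in KO libraries and 17.7, 16.5 and 18.8 FPKM in control libraries, a log2 difference of 1.21 (adjusted p = 4.34e-06, limma). Nqo1, the quinone reductase gene often used as a readout of NRF2, fell, with 13.4, 11.6 and 11.6 FPKM in KO libraries and 24.8, 22.2 and 25.2 FPKM in control libraries (log2 difference -0.93, adjusted p = 3.91e-05, limma). Its neighbours on chromosome 8 were also lower, with a median of -0.26, and centring on them left Nqo1 at -0.67 (adjusted p = 0.000304, limma). Me1, the NADPH-producing malic enzyme gene, fell as well, with a log2 difference of -0.69. Of 8 tested regulators 2 rose and 1 fell. Nfe2l2, which encodes NRF2, rose to 63.4 ± 4.45 FPKM in KO, against 52.6 ± 1.58 FPKM in control cells (SD, n = 3 each; adjusted p = 0.0120, limma). Leaving out control replicate 1 ended the call of Nfe2l2 (adjusted p = 0.0547, limma). Keap1, the NRF2 inhibitor gene, had 11.0 ± 1.10 FPKM in KO and 10.3 ± 0.515 FPKM in control cells and did not pass (adjusted p = 0.478, limma). Without KO replicate 1 or KO replicate 2 the regulators that rose and fell numbered 1 and 0. They numbered 0 and 1 without control replicate 1, and 1 and 0 without control replicate 3.

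Among 9 tested hydroxysteroid dehydrogenase and steroid reductase genes, which share substrates with the Akr1c enzymes, limma called 0 as higher and 2 as lower; 0 were higher at an unadjusted p under 0.05 and 0 by limma-voom. The median log2 difference was -0.09. Hsd17b7, which acts in cholesterol synthesis and on oestrogens, fell to 4.72 ± 0.454 FPKM in KO, against 10.1 ± 0.282 FPKM in control cells (SD, n = 3 each; adjusted p = 2.18e-05, limma). The count of falls was 1 without any 1 library other than KO replicate 3.

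**Figure D4:**
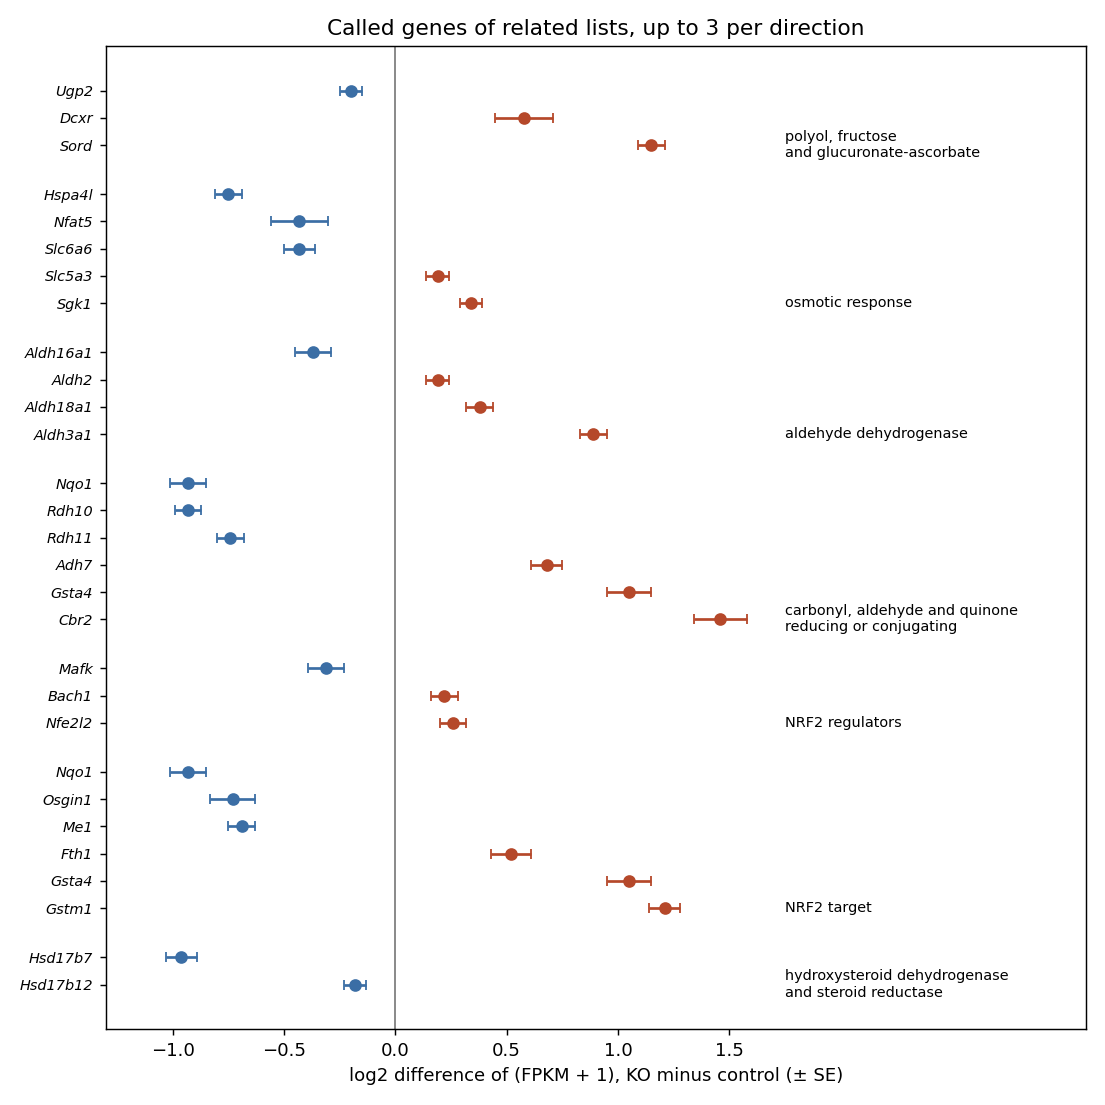
Log2 difference of (FPKM + 1), KO minus control, with its standard error (n = 3 libraries per group), for up to 3 genes per direction of each related list that passed the test; red points are higher and blue points lower in KO cells. Sord (1.15), Cbr2 (1.46) and Gstm1 (1.21) lie farthest to the right and Hsd17b7 (-0.96) farthest to the left.

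The genes whose levels followed Akr1c12 most closely over the 6 libraries were Pim1, Wnt6 and Cth, with root mean square distances of 0.049, 0.055 and 0.057 between the centred log2 values. Pim1 encodes a kinase and had 16.9, 15.7 and 19.2 FPKM in KO libraries and 7.005, 7.48 and 6.60 FPKM in control libraries. Cth encodes the cystathionine lyase that makes cysteine and had 29.6 ± 2.23 FPKM in KO and 12.8 ± 0.715 FPKM in control cells (SD, n = 3 each). Wnt6, a secreted ligand gene, passed the filter through KO libraries alone, with 1.31 ± 0.157 FPKM in KO and 0.0665 ± 0.0373 FPKM in control cells. Its likeness depends on the pseudocount: the log2 differences of Wnt6 and Akr1c12 were 1.11 and 1.18 with a pseudocount of 1, 3.1 and 1.40 with 0.1, and 4.19 and 1.42 with limma-voom. Those of Pim1 and Cth stayed nearer to Akr1c12, at 1.28 and 1.20 with a pseudocount of 0.1. For Akr1b3 the closest were Krtcap3 (0.026), Adgre5 (0.031) and Fkbp8 (0.041). Adgre5 and Fkbp8 lie on chromosome 8, where the neighbours of both genes were also lower, with medians of -0.25 and -0.18 on the log2 scale. Since the 6 libraries form 2 groups, a small distance mostly means a like difference between the groups.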

How the data were processed

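RNA-seq was measured in 3 KO and 3 control libraries of 4T1 cells, grouped by their titles. The authors deposited 1 table of FPKM values, which the column names tie to the libraries; the unit was read from the values, which are spaced by exon length and depth. Per the submitters' processing notes, the tools were CASAVA, Bowtie, Bowtie2, TopHat, TopHat2 2.0.12 and HTSeq 0.6.0, and the build was mm10. Not given in the sources used here are the task of each tool, the annotation, the strand setting and the treatment of reads that match several genes. Symbols and exon lengths of 23577 of 23644 rows came from GENCODE M21 (GRCm38).

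The test was limma (version 3.58.1, R version 4.3.3) on log2(FPKM + 1), with trended and robust variance moderation, 2 groups and no covariates. It took the 11171 genes that reached 1 FPKM in 3 or more libraries, and its two-sided p-values were adjusted by Benjamini and Hochberg's method over that whole set and called at 0.05. Differences on this scale understate low genes. Reads were rebuilt from FPKM and union exon length; of the values below a limit of 500 reads, 91.9% to 92.2% per library were whole to within 0.02, so depths are approximate. Replicates were not the same library deposited again (pairwise chi-square over its degrees of freedom was 3.03 to 19.2), and all were kept. The fit was also run on simulated reads with 200 changed genes and the same added spread for every gene, as a check of the code. No simulated library was set apart as KO replicate 3 was, so that run does not vouch for error rates in these data. Promoter sequences are RefSeq's (GRCm38.p6), aligned with Biopython 1.88.

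The members and gene lists were chosen with earlier results of these data known. By rule the text names the members, other family genes averaging 0.5 FPKM or more, the 3 genes per list and direction with the largest differences among those called and averaging 2 FPKM or more, Nfe2l2, Keap1, Carmil3, the nearest tested genes and the 3 most like Akr1c12 and Akr1b3; of the list genes fewer are described, mainly those whose calls held under all alternatives, which was decided after their values were seen. Alternatives were the pseudocounts 0.1 and 5, a low-value filter of 5 FPKM or none, 2 other normalizations, plain eBayes, a replicate block, leaving out each library, centring on 20 neighbours on each side, and limma-voom on rebuilt reads. Division by coding transcript length was added after seeing the data.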

Additional observations from a re-analysis of the deposited data

How the results depend on the processing

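Since the members were selected on these values, that their signs stayed the same under the alternatives is no support for them; Akr7a5 passed the threshold with the replicate block and without KO replicate 2. Over all genes, 1886 were higher and 2087 lower in KO; with 1 library left out these were 1182 to 2041 and 1358 to 2218, lowest without control replicate 1. Among the members' log2 differences, Akr1c12 had 1.40 with a pseudocount of 0.1, 0.70 with 5 and 1.42 with limma-voom, and with a pseudocount of 5 Akr1b8 had 0.46 and Akr1b10 0.35. Centring on neighbours gave 0.27 for Akr1a1, -0.51 for Akr1b3 and 0.39 for Akr1b8. Per coding transcript the KO and control levels were 231 and 181 for Akr1a1, 56.8 and 75.5 for Akr1b3, 36.0 and 24.6 for Akr1b8, 18.5 and 11.7 for Akr1b10, and 15.1 and 12.6 for Akr7a5, a change made by the length alone.

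Counts of small lists changed with the setting, and the cause was not tested. Without the filter, 1 other family gene, 1 osmotic gene, 2 aldehyde dehydrogenase genes and 1 NRF2 regulator were higher and 2 aldehyde dehydrogenase genes lower. With a filter of 5 FPKM, where fewer genes are tested, 1 other family gene and 1 polyol, fructose or glucuronate gene were higher, and 0 aldehyde dehydrogenase genes and 0 NRF2 regulators lower. With centring, 1 other family gene was higher, and 0 genes of the polyol list and 1 of the hydroxysteroid list were lower. With 1 library left out, the higher genes numbered 0 to 2 for the other family genes, 1 to 2 for the osmotic list, 2 to 4 for the aldehyde dehydrogenases and 0 to 2 for the NRF2 regulators, and the lower ones 0 to 1 for the polyol list, 1 to 2 for the aldehyde dehydrogenases, 0 to 1 for the NRF2 regulators and 1 to 2 for the hydroxysteroid list. Replicate numbers are shared between the groups, but same-numbered libraries deviated together with correlations of -0.061, 0.149 and 0.098 only, so they were not treated as pairs; with the replicate block 1900 genes were higher and 2127 lower, and 1 other family gene was called, Akr1e1 missing the threshold (adjusted p = 0.0712). Of 43 single genes compared, 36 were called, and 21 of them were called under every alternative. Directions turned only for genes that were not called: with centring, Keap1 (-0.06), Slc35b4 (-0.01) and Bpgm (-0.14), and for Bpgm also with limma-voom (0.00) and with 1 library left out (-0.04 to 0.04).

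With 68 reads of Akr1c12 in each control library, depth limits the precision of its ratio. Genes under the filter on low values, such as Kcnab3, were not tested in the fit as reported.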
